A study of Mus musculus with 144 samples.

Results

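The ageing of skeletal muscle in control mice is described here from 12 of the 144 RNA sequencing libraries of a study of the naked mole-rat hyaluronan synthase 2 transgene. The 12 libraries are all those labelled as muscle of CreER animals, 6 from mice of 24 months (old) and 6 from mice of 6 months (young), with 3 females and 3 males at each age. CreER mice carry the tamoxifen-regulated Cre recombinase without the transgene, and the other 12 muscle libraries come from nmrHAS2 mice of the same ages and sexes, which carry the transgene. The labels name neither the muscle taken nor the promoter of the recombinase, nor which animal gave each library, so p-values cover the spread between libraries, which may be technical in part. Of the 40946 genes in the count table, 18063 passed the filter on low counts and were tested. Each change is the log2 difference of old minus young, the mean of the female and the male difference, with its standard error. Levels are given as CPM, counts scaled to a common library size, and where 3 levels are printed they are the lowest, the median and the highest of 6 libraries.

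Skeletal muscle is made of multinucleated fibres, whose contraction runs on glycolysis and mitochondrial respiration, and of smaller cells between them, among them satellite cells, fibroblasts, endothelial cells and macrophages. With age muscle is known to lose mass and force, motor axons withdraw from some fibres, and fibres that lose their nerve switch on a set of denervation genes. Loss of mass runs in part through the FoxO transcription factors and the ubiquitin ligases atrogin-1 and MuRF1, and repair draws on satellite cells that express Pax7.

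The 12 libraries differed in kind as well as in age. Rn7sk, Rmrp, Rpph1, Rn7s1 and Rn7s6, which have no poly(A) tail, took up 13.3 to 19.0% of the reads counted in the 6 female libraries and 0.0015 to 0.0035% in the 3 young males, while the old males held 14.3%, 13.1% and 0.0071%. By the threshold of 1% there were thus 8 libraries of high and 4 of low share, and thresholds of 0.1 and 5% gave the same assignment. In males both old libraries of high share meet young libraries of low share, so age and library kind cannot be told apart there except through old male CreER 3. The 6 female libraries are of 1 kind by this threshold, but they differ in how many nonzero values are fractions: 63.7 to 65.8% in the young, 63.7% in old female CreER 3 and 25.6 and 26.2% in the other 2 old females. Total counts were 83.3 to 109.6 M in young females, 36.8 to 91.0 M in old females, 23.9 to 29.7 M in young males and 18 to 35.1 M in old males.

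Myofibre markers, 12 structural genes of the muscle fibre, summed to 27530 to 71980 CPM in old and 37430 to 84440 CPM in young libraries, so each library holds the labelled tissue. Both lowest sums were in males: old male CreER 3, and young male CreER 1 with 37430 CPM. Old male CreER 3 held 2704 CPM of the 8 neutrophil markers tested against 10.6 to 14.9 CPM in the other 5 old libraries, and 13680 CPM of 8 erythroid markers against 81.9 to 598 CPM. Young male CreER 1 held 702 CPM of 13 B and plasma cell markers against 64.5 to 85.2 CPM in the other 5 young libraries, and 213 CPM of 19 T and NK cell markers against 4.11 to 8.32 CPM. The 20 proliferation genes summed to 738 CPM in the first and 341 CPM in the second of these libraries, against 40.9 to 56.4 CPM in the other 10. Hepatocyte markers stood apart in another place: 12 of them summed to 196, 326 and 464 CPM in the old females and to at most 14.4 CPM in the other 9 libraries.

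**Figure D1:**
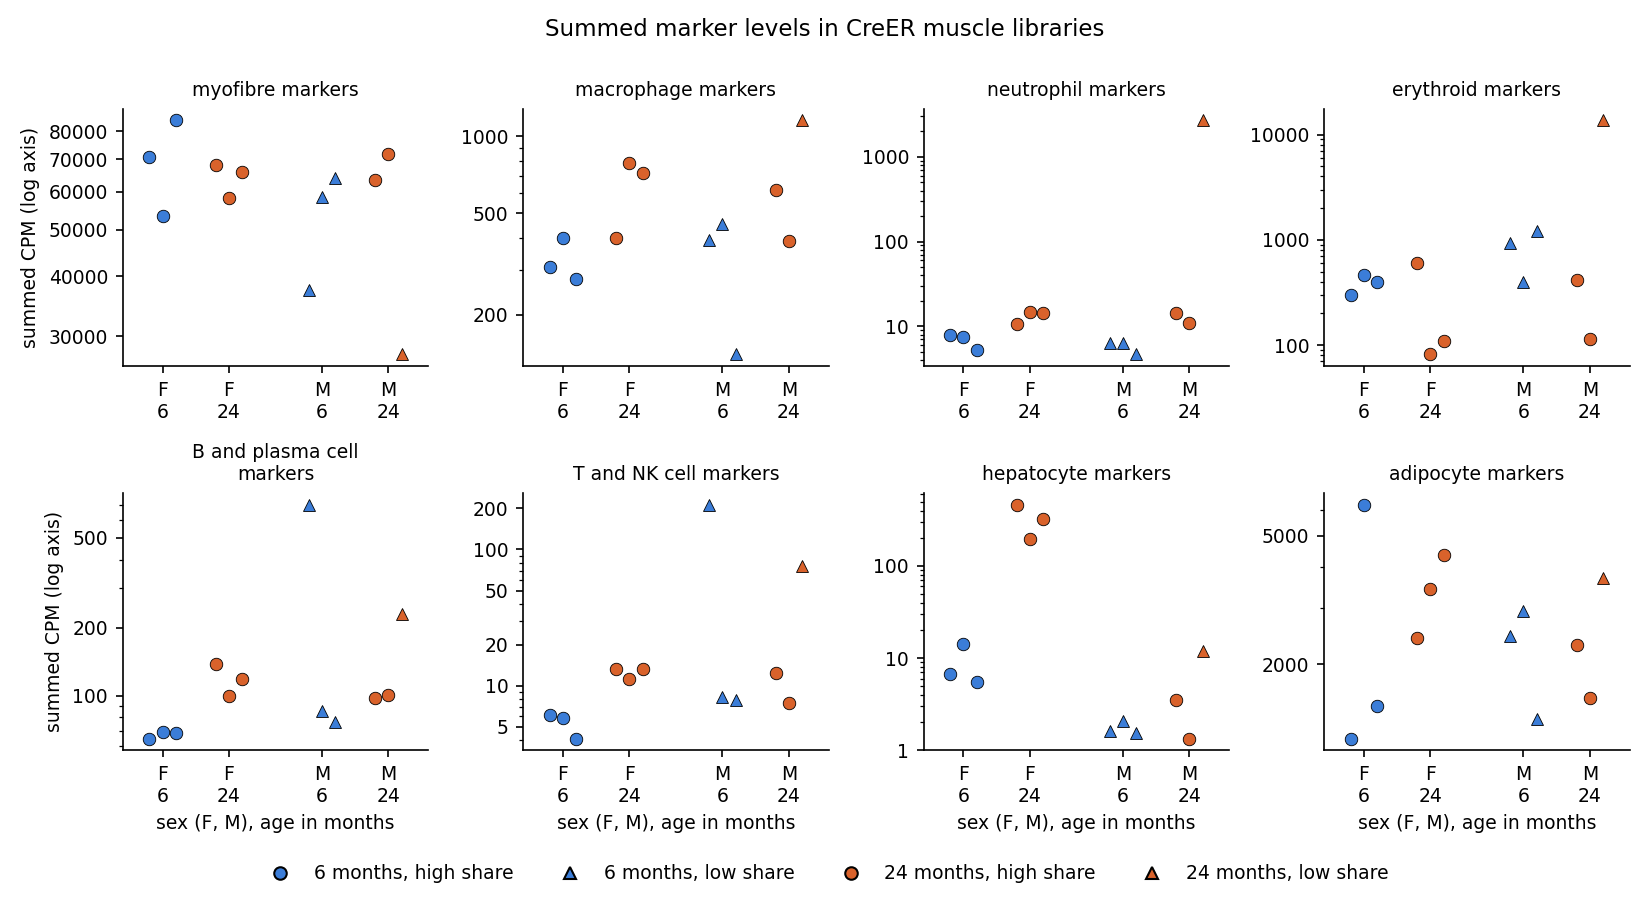
Summed CPM (log axis) of 8 marker lists in each of the 12 CreER muscle libraries, by sex and age in months; circles are libraries where the 5 RNAs that lack a poly(A) tail take over 1% of the counts, triangles those below. Neutrophil and erythroid sums are highest in old male CreER 3, lymphocyte sums in young male CreER 1, and hepatocyte sums in all 3 old females.

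With age 1445 genes rose and 1637 fell, 17.1% of the genes tested (8% rose and 9.06% fell, edgeR adjusted p below 0.05). The shares of 8% and 9.06% are the background for the counts of list members called by group means below. The median change over all genes was 0.05. Adding library kind as a term to the model, 1049 rose and 1566 fell, 14.5% (5.81% and 8.67%). Of these, 569 rises and 987 falls were called in both fits. The size of this term comes from the old males of each genotype, the only groups that hold both kinds. With old male CreER 3 and young male CreER 1 left out, 3358 genes rose and 3265 fell, 36.5% of 18158 tested. With both left out and library kind in the model, 41 rose and 81 fell, 0.672%, and in that fit no old male of low share is left among the CreER libraries. Leaving out old male CreER 3 alone with the kind term, 6 rose and 11 fell, so the calls of that fit depend on this library. The 6 old and 6 young libraries did not overlap in 610 genes, 3.38% of those tested, of which 157 were higher and 453 lower in old muscle (0.869% and 2.51%).

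**Figure D2:**
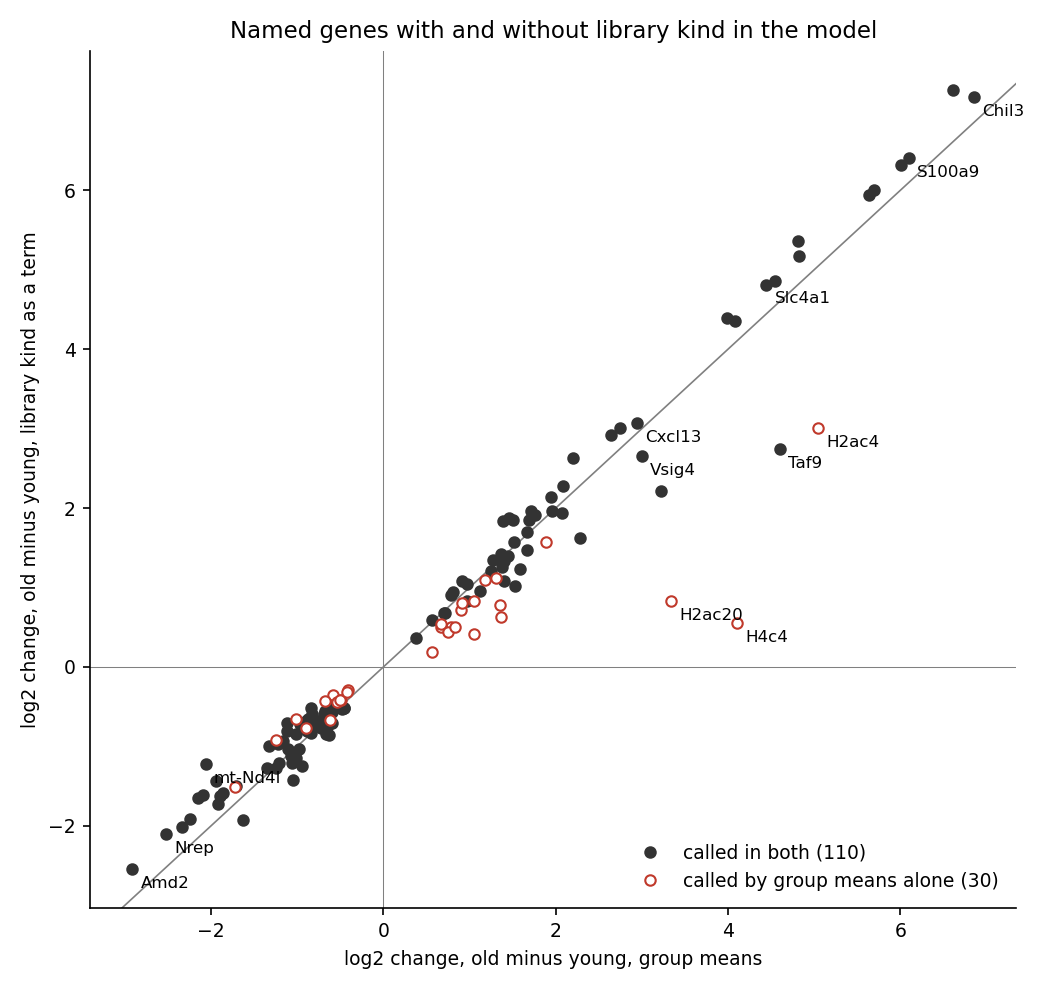
Log2 change with age of the 140 named genes that were called, by group means (horizontal) and with library kind as a term (vertical), with the line of equal change. All 140 keep their sign, 110 are called in both fits, and the histone genes H4c4 and H2ac20 lie far below the line.

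**Figure D3:**
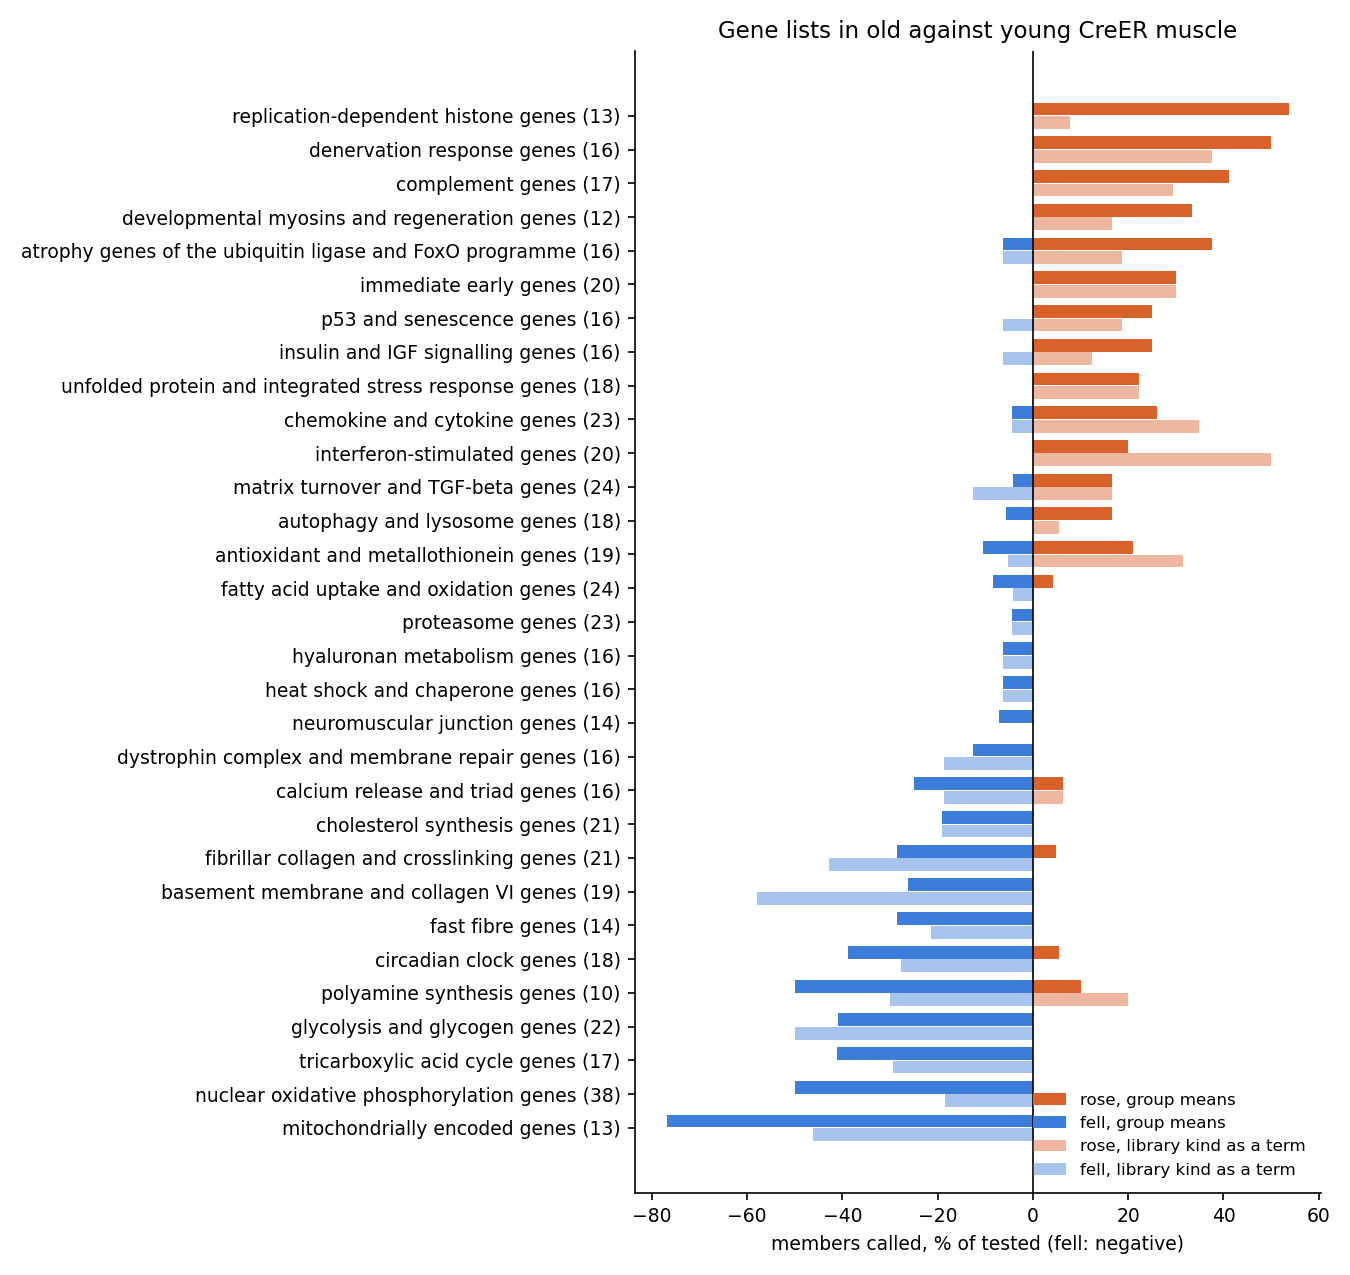
Share of the tested members of each gene list (number in brackets) that rose (right) or fell (left, drawn as negative percent) with age, by group means (dark) and with library kind as a term (light). Calls among mitochondrially encoded, respiratory, citric acid cycle and glycolytic genes are all falls, and those among denervation, complement and immediate early genes all rises.

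Genes of the fast and slow fibre lists fell or were not called by group means. Of 14 fast fibre genes 0 rose and 4 fell, beside 8% and 9.06% of all genes (median change -0.47), and 3 fell with library kind as a term. Casq1, the calcium store protein of the sarcoplasmic reticulum of fast fibres, was at 779.7, 992 and 1420 CPM in old and 1681, 2174 and 3666 CPM in young muscle. The groups did not overlap, and the change was -1.22 ± 0.21, adjusted p = 0.0023. Myl1, a fast myosin light chain, fell by 0.85 (adjusted p = 0.0114), Myoz1, a protein of the Z-disc, by 0.62 (adjusted p = 0.0155) and Tnnc2, fast troponin C, by 0.59 (adjusted p = 0.0468), the last with adjusted p = 0.183 with library kind as a term. The fast myosin heavy chains themselves were not called by group means: Myh4 had a change of -0.21 ± 0.26, adjusted p = 0.606, Myh1 of 0.00 ± 0.36 and Myh2 of -0.34 ± 0.39. Compared within library kind, where old male CreER 3 is the only old male, the change of Myh4 was -0.84. Myh4, at 13580, 39390 and 44640 CPM in old muscle, was lowest in old male CreER 3, and the next old library was at 37760 CPM. None of 12 slow fibre genes was called (median -0.72), and Myh7, the slow myosin heavy chain, ranged from 18.8 to 178 CPM in old and 34.6 to 286 CPM in young libraries, a spread that left its change at -1.18 ± 0.82, adjusted p = 0.326.

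Some genes of calcium handling fell. Of 16 calcium release and triad genes 1 rose and 4 fell (25% against 9.06% of all genes), and 1 rose and 3 fell with library kind as a term, where Hrc was not called (adjusted p = 0.0879). Jph2, which ties the surface membrane to the calcium store, fell by 0.66 (adjusted p = 0.0206), Orai1, the store-operated calcium channel, by 0.56 (adjusted p = 0.0147), Hrc, a calcium binding protein of the store, by 0.49 (adjusted p = 0.0289) and Stac3, a part of excitation-contraction coupling that lies outside the naming rule, by 0.55 (adjusted p = 0.0352). Sln, sarcolipin, an inhibitor of the calcium pump, rose from 2.41, 3.52 and 11 CPM in young to 6.5, 17.8 and 30.8 CPM in old muscle (1.95 ± 0.51, adjusted p = 0.0169), with overlap between the groups. Of 16 dystrophin complex and membrane repair genes 0 rose and 2 fell, 12.5%, a share near the 9.06% of all genes. Cav3, the caveolin of muscle, was at 12.4, 18.7 and 20.1 CPM in old and 24.8, 28.3 and 46.1 CPM in young libraries without overlap (-0.89 ± 0.15, adjusted p = 0.0024), and Sspn, sarcospan, fell by 0.63 (adjusted p = 0.00949). Both were also called with library kind as a term (-0.81 and -0.86).

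Denervation genes rose in part and none fell. Of 16 such genes 8 rose and 0 fell (median 0.91 against 0.05 over all genes), and 6 rose with library kind as a term. Gadd45a, a stress response gene induced by denervation, was at 33.5, 41.2 and 47.7 CPM in old and 6.98, 12.8 and 15.4 CPM in young muscle. Every old library was above every young one, in each sex, and the change was 1.76 ± 0.24, adjusted p = 0.000748. It was 1.75 in females and 1.77 in males and 1.91, adjusted p = 0.000707 with library kind as a term. Ampd3, an AMP deaminase, also had no overlap, at 10.8, 12.9 and 16.4 against 6.03, 6.67 and 9.87 CPM (0.91 ± 0.18, adjusted p = 0.00505). Runx1, a transcription factor of denervated fibres, was at 5.25, 7.34 and 8.45 CPM in old and 1.57, 2.22 and 6.72 CPM in young libraries (1.36 ± 0.29, adjusted p = 0.00696). Its highest young value lies in young male CreER 1, the library with high lymphocyte markers, and the other 5 young libraries were at most at 3.22 CPM. Of 14 neuromuscular junction genes 0 rose and 1 fell, Colq, the collagen tail that anchors acetylcholinesterase, which was named after its values were seen (-0.63 ± 0.19, adjusted p = 0.0323; adjusted p = 0.0935 with library kind as a term).

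Developmental myosins and regeneration genes share Myh3, Myh8 and Myog with the denervation list. Of 12, 4 rose and 0 fell (median 0.59), and 2 rose with library kind as a term. Ankrd1, a stress-responsive protein that binds titin, rose from 9.26, 12.9 and 16.5 CPM to 16.8, 77 and 99.1 CPM (2.29 ± 0.36, adjusted p = 0.00154). The groups did not overlap, but old male CreER 3, at 16.8 CPM, lay close to the highest young library, and the other 5 old libraries were at 42.8 CPM or more. Embryonic myosin Myh3 rose by 1.59 (adjusted p = 0.0105), neonatal myosin Myh8 by 0.91 (adjusted p = 0.0412) and Mymx, which acts in myoblast fusion, by 1.89 (adjusted p = 0.0485) from a median of 0.0803 CPM. Myh8 and Mymx missed the threshold with library kind as a term (adjusted p = 0.146 and 0.148).

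The atrophy programme rose in part, and its best known members were low in 1 old library. Of 16 genes 6 rose and 1 fell (median 0.87), against 3 and 1 with library kind as a term. Cebpb, a transcription factor of muscle wasting and inflammation, was at 25.5, 30 and 40.3 CPM in old and 6.56, 11.2 and 16.3 CPM in young libraries. These did not overlap, and the change was 1.4 ± 0.22, adjusted p = 0.00155 (1.33, adjusted p = 0.00302 with library kind as a term). Foxo3, a driver of the ubiquitin ligases, rose by 1.12 (adjusted p = 0.0107), Fbxo30 by 0.78 (adjusted p = 0.0133) and Eif4ebp1, a brake on translation, by 0.96 (adjusted p = 0.0135), and Fbxo30 was not called with the term (adjusted p = 0.0592). The ubiquitin ligase genes Trim63 (MuRF1) and Fbxo32 (atrogin-1), and Mstn below, lie outside the naming rule and were chosen after their values were seen. Trim63 was at 885 to 2362 CPM in 5 old libraries and at 93.3 CPM in old male CreER 3, against 71.6, 183 and 754 CPM in young libraries. Its change was 2.41 ± 0.64, adjusted p = 0.0178 by group means and 1.44, adjusted p = 0.148 with library kind as a term, and 2.49 (adjusted p = 0.00641) without that library and young male CreER 1. Fbxo32 had the same layout, with 115 CPM in old male CreER 3 and 1091 to 1576 CPM in the other 5 (1.79 ± 0.47, adjusted p = 0.0172; 0.85, adjusted p = 0.204 with the term). Old male CreER 3 is also the only old library of low share, and which of its features goes with these levels was not tested. Mstn, myostatin, the inhibitor of muscle growth, fell by 0.85 (adjusted p = 0.022).

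Some autophagy and insulin signalling genes were called. Of 18 autophagy and lysosome genes 3 rose and 1 fell, 22.2% called, near the 17.1% of all genes. They were Gabarapl1 (1.36, adjusted p = 0.0166) and Bnip3 (0.66, adjusted p = 0.0248), genes of autophagosomes and mitophagy, Ctsl, a lysosomal protease (0.38, adjusted p = 0.0155), and Atg12, which fell by 0.41 (adjusted p = 0.016). Under the term for library kind 1 rose, Ctsl, and 0 fell. Of 16 insulin and IGF signalling genes 4 rose and 0 fell: the IGF binding proteins Igfbp3 (1.53 ± 0.34, adjusted p = 0.00836) and Igfbp4 (0.72 ± 0.17, adjusted p = 0.0115), the receptor Igf1r (0.67, adjusted p = 0.0263) and the adaptor Irs2 (1.05, adjusted p = 0.0293). Igf1r and Irs2 were not called with the term (adjusted p = 0.0902 and 0.121).

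Genes of polyamine metabolism fell in part. Amd1, S-adenosylmethionine decarboxylase, was at 109.7, 195 and 599 CPM in old and 267, 892 and 2453 CPM in young muscle (-1.87 ± 0.24, adjusted p = 0.000418). The pooled groups overlapped, since young males were at 1451 to 2453 CPM and young females at 267 to 333 CPM. Within each sex all 3 old libraries were below all 3 young ones, a layout that 42.1% of all genes had, in 1 direction or the other, in females and 15.5% in males, with changes of -1.35 in females and -2.38 in males, and the change was -1.58, adjusted p = 0.000554 with library kind as a term. Amd2, a near copy of Amd1, fell by 2.91 (adjusted p = 0.00591), but reads can be shared between the copies, so its value is uncertain. Of the 10 polyamine genes 5 fell and 1 rose, against 3 and 2 with the term, where Oaz2 and Sms were not called (adjusted p = 0.0576 and 0.0793). Smox, spermine oxidase, fell by 1.22 (adjusted p = 0.00473), with -0.27 in females and -2.16 in males, Oaz2 fell by 0.54 (adjusted p = 0.016) and Sms, spermine synthase, by 0.41 (adjusted p = 0.0331). Sat1, which acetylates polyamines for export, rose by 1.04 (adjusted p = 0.02).

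Many genes of glycolysis, the citric acid cycle and respiration fell, while those of fatty acid use were called no more often than genes at large. Of 22 glycolysis and glycogen genes 0 rose and 9 fell (median -0.54), and 0 and 11 with library kind as a term. Pgm1, phosphoglucomutase, which links glycogen to glycolysis, was at 428, 505 and 542 CPM in old and 734, 952 and 1340 CPM in young libraries without overlap (-1.01 ± 0.17, adjusted p = 0.0025). The muscle enolase Eno3 (-0.86 ± 0.18, adjusted p = 0.00553) was at 1826, 2051 and 2601 CPM against 2599, 4038 and 4762 CPM, with the highest old and the lowest young library almost level. Pgam2, the muscle phosphoglycerate mutase, fell by 0.97 (adjusted p = 0.0065) and Phkg1, the catalytic subunit of phosphorylase kinase, by 0.68 (adjusted p = 0.00594). The 4 kept their call with the term (-0.84, -0.77, -0.72 and -0.68).

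Of 17 citric acid cycle genes 0 rose and 7 fell (median -0.40), and 5 fell with library kind as a term, where Suclg1 was not called (adjusted p = 0.0524). Idh3a, a subunit of isocitrate dehydrogenase, was at 189.9, 256 and 301 CPM in old and 312, 358 and 585 CPM in young libraries without overlap (-0.68 ± 0.15, adjusted p = 0.00835). Fh1, fumarase, fell by 0.59 (adjusted p = 0.0074), Suclg1 by 0.51 (adjusted p = 0.0167) and Idh3g by 0.49 (adjusted p = 0.0184). Of 24 genes of fatty acid uptake and oxidation 1 rose, Angptl4, an inhibitor of lipoprotein lipase (1.30, adjusted p = 0.0258), and 2 fell, Cpt2 (-0.60, adjusted p = 0.0115) and Hadh (-0.43, adjusted p = 0.0374). These 3 are 12.5% of the list, below the 17.1% of all genes called, the median was -0.09, and Angptl4 and Hadh were not called with the term (adjusted p = 0.0793 and 0.126).

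Of 38 nuclear genes of oxidative phosphorylation 0 rose and 19 fell, and all 38 had a negative change (median -0.42). Under the kind term 7 fell and the median was -0.36. Cyc1, cytochrome c1 of complex III, was at 71.6, 96.3 and 121 CPM in old and 144, 150 and 245 CPM in young libraries without overlap (-0.85 ± 0.19, adjusted p = 0.0075). The complex II genes Sdhb (-0.60, adjusted p = 0.0164), Sdhc (-0.53, adjusted p = 0.0195) and Sdhd (-0.65, adjusted p = 0.0147) also fell.

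Most transcripts of the mitochondrial genome fell. Of 13 tested, 0 rose and 10 fell (median -0.93), and the median was -0.17 in females and -1.85 in males. Their sum was 217900 to 308700 CPM in young males, 3 of the 4 libraries of low share, and 66620 to 127900 CPM in the other 9 libraries, old male CreER 3 of low share included at 76650 CPM. mt-Nd1, a complex I subunit, was at 16890, 19400 and 24900 CPM in young males and at 3677, 5886 and 7982 CPM in old libraries (-0.90 ± 0.21, adjusted p = 0.0101; -0.17 in females and -1.63 in males). Under the kind term 6 of the 13 fell, in males alone 9 of 13 (beside 3.08% of all genes that fell in males) and in females alone 0 of 13 (beside 2.29%). mt-Atp8 (-1.11 ± 0.26, adjusted p = 0.0105), mt-Cytb (-1.02 ± 0.25, adjusted p = 0.0135) and mt-Nd4l (-2.06 ± 0.43, adjusted p = 0.00593) also fell, and mt-Cytb was not called with the term (adjusted p = 0.0693). The difference between sexes was not called for any of the 13, and mitochondrial transcripts share sequence with nuclear copies, so their levels are uncertain.

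Clock genes fell in part. The circadian clock runs on the activators Clock and Arntl, which drive the repressors Per and Cry and the output factors Dbp, Hlf and Nr1d1 through E-boxes, and Dbp and Hlf bind D-boxes. Of the 7 clock genes that fell, 3 have such a motif on the strand searched of their promoter window. These windows are shown as examples of the letters. Ciart, Per1 and Tef hold an E-box as well and were not called with age. The windows run from 250 bases before to 50 after the RefSeq start on GRCm38.p6, 5′ to 3′. Capitals mark the E-box (letters CACGTG) or the D-box (letters TTANGTAA). The E-box reads the same on both strands, the D-box does not, and only the strand of the gene, as printed, was searched. Per3 lies on the minus strand at chr4:151044616-151044915, Cry1 on the minus strand at chr10:85185005-85185304 and Bhlhe41 on the minus strand at chr6:145865371-145865670.
Per3: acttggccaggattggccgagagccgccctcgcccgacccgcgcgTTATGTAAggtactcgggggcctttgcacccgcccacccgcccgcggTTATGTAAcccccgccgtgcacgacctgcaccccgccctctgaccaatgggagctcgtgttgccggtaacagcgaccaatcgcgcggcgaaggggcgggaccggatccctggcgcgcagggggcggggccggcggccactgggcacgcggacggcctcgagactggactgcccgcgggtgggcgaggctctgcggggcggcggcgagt
Cry1: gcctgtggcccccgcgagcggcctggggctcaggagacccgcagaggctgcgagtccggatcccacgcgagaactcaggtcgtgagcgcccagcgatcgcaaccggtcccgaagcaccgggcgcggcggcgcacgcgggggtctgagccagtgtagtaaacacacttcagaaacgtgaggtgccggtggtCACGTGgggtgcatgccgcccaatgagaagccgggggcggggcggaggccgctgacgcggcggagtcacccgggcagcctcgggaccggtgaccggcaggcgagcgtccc
Bhlhe41: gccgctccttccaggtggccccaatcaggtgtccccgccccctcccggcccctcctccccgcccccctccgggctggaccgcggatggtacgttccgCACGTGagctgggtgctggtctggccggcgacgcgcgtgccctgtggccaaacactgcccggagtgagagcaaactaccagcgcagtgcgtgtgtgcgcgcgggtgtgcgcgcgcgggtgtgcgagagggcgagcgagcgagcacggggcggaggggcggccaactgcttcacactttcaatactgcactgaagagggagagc
On the strand searched the E-box is in 7.15% and the D-box in 1.3% of 32851 promoter windows of this length. Of 15 clock genes with a window 5 hold an E-box and 1 a D-box on that strand. A match is a description of the letters, and the windows of Dbp, Hlf, Nr1d1 and Nr1d2 hold neither motif on the strand searched.

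Of 18 clock genes 1 rose and 7 fell (median -0.51), and 0 rose and 5 fell with library kind as a term. Per3, with 2 D-boxes in the window printed above, was at 4.74, 7.74 and 9.86 CPM in old and 13.5, 17.1 and 21 CPM in young libraries. These did not overlap, and the change was -1.17 ± 0.22, adjusted p = 0.00414 (-0.94, adjusted p = 0.0106 with the term). Cry1, a repressor, was at 3.81, 4.98 and 5.93 against 6.2, 8.05 and 11.1 CPM, also without overlap (-0.74 ± 0.18, adjusted p = 0.0112). Nr1d1, a repressor of Arntl, fell by 0.88 (adjusted p = 0.00865), with -0.24 in females and -1.51 in males. Hlf fell by 1.32 (adjusted p = 0.00776) and was at 1.07, 1.77 and 5.16 CPM in old muscle, highest in old male CreER 3. Dbp, Bhlhe41, Nr1d2 and Npas2 are outside the naming rule. Dbp was at 5.08 to 9.74 CPM in 5 old libraries and 26.9 CPM in old male CreER 3, against 21.4, 30.3 and 54.7 CPM in young libraries (-1.72 ± 0.43, adjusted p = 0.0134). Bhlhe41 (-0.84, adjusted p = 0.0189) and Nr1d2 (-0.36, adjusted p = 0.0496) fell and Npas2 rose (1.01, adjusted p = 0.027), all 3 not called with the term. The hour of collection is not given in the sources used here, and its part in these changes was not tested.

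Several collagen genes fell. Of 21 fibrillar collagen and crosslinking genes 1 rose and 6 fell (median -0.42), and 0 rose and 9 fell with library kind as a term. Col3a1, the chain of type III collagen, was at 69.8, 112 and 133 CPM in old and 233, 349.7 and 432 CPM in young libraries without overlap (-1.63 ± 0.37, adjusted p = 0.00922). Col1a1 and Col1a2, the chains of type I collagen, were at 15.6, 18.4 and 58.3 and 48.2, 59.3 and 89.1 CPM in old against 48.3, 71.7 and 144 and 94.3, 144 and 209 CPM in young muscle (-1.72 ± 0.33, adjusted p = 0.00408, and -1.25 ± 0.26, adjusted p = 0.00646). Col1a1 overlapped only through old male CreER 3, at 58.3 CPM. Both genes were called under all 22 alternatives run for named genes, which do not include females or males alone. In females alone 1 of the 21 genes of the list fell, and in males alone 4, beside 2.29% and 3.08% of all genes. Sparc, a collagen binding glycoprotein, fell by 0.84 (adjusted p = 0.00473). The gene that rose was Lox, a crosslinking enzyme named after its values were seen (1.25, adjusted p = 0.0354; 0.36, adjusted p = 0.44 with the term).

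Of 19 basement membrane and collagen VI genes 0 rose and 5 fell, against 0 and 11 with library kind as a term, where the median moved from -0.10 to -0.62. Col6a2, a chain of collagen VI, was at 15.8, 22.4 and 24.4 CPM in old and 36.3, 40.5 and 63.7 CPM in young libraries without overlap (-1.06 ± 0.20, adjusted p = 0.00404). Col6a3 (-1.05, adjusted p = 0.0155), Col15a1 (-1.35, adjusted p = 0.00946) and the perlecan gene Hspg2 (-0.65, adjusted p = 0.0146) had no overlap either, and Col6a1, outside the naming rule, fell by 0.76 (adjusted p = 0.0378). Among 24 matrix turnover and TGF-beta genes 4 rose and 1 fell (median 0.39), 20.8% called, near the 17.1% of all genes. With library kind as a term 4 rose and 3 fell (median 0.14). Thbs1, thrombospondin 1, an activator of TGF-beta, rose from 7.21, 17.5 and 44.4 to 31.9, 82.7 and 164 CPM (1.96 ± 0.45, adjusted p = 0.00899), Inhba by 0.97 (adjusted p = 0.035), Tgfbr1 by 0.57 (adjusted p = 0.0266) and Mmp14, outside the naming rule, by 0.62 (adjusted p = 0.0488), while Postn, periostin, fell by 0.90 (adjusted p = 0.0197). Tgfbr1, Mmp14 and Postn were not called with the term (adjusted p = 0.157, 0.192 and 0.062). Of 13 fibroblast markers 0 rose and 3 fell, Lum (-0.98 ± 0.23, adjusted p = 0.0104), Clec3b (-1.12 ± 0.29, adjusted p = 0.0156) and Cd248 (-0.94 ± 0.27, adjusted p = 0.0267). With library kind as a term 1 rose and 3 fell. As a set the 13 had no common direction, with 6 positive and 7 negative changes (median -0.155). Their sum was 1085, 2467 and 2910 CPM in old and 1214, 2068 and 2898 CPM in young libraries. In whole muscle fewer cells of a type and less RNA per cell cannot be told apart.

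**Figure D4:**
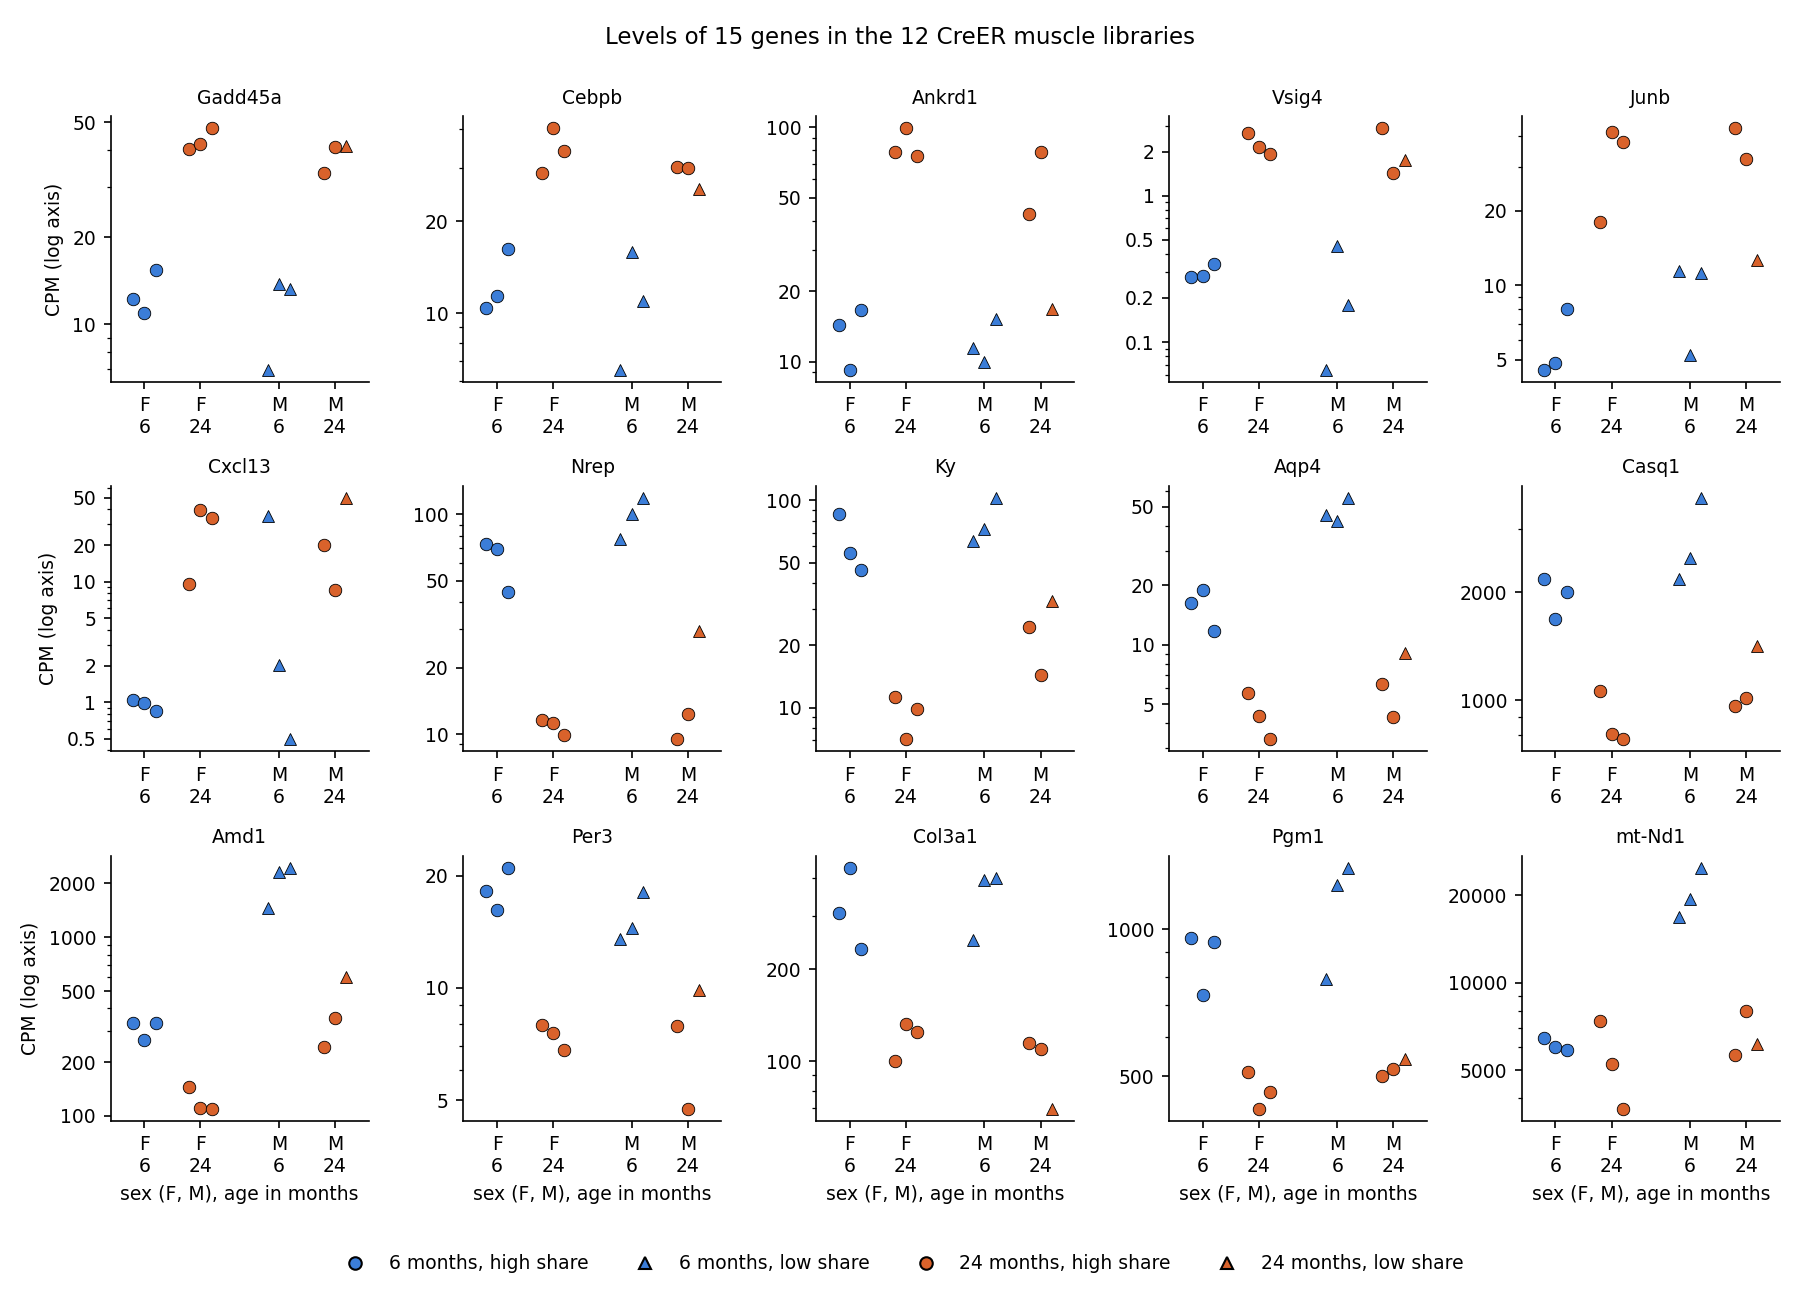
CPM (log axis) of 15 genes in the 12 libraries, by sex (F, M) and age in months; circles are libraries of high and triangles of low share of the 5 untailed RNAs. Gadd45a, Cebpb, Vsig4 and Junb are higher in all 6 old libraries, Nrep, Ky, Aqp4, Casq1, Per3, Col3a1 and Pgm1 lower in all 6, and mt-Nd1 is high in young males alone.

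Macrophage genes rose. Of 19 macrophage markers 12 rose and 0 fell (median 1.28), and 9 rose with library kind as a term. Vsig4, a complement receptor of resident macrophages, was at 1.43, 2.04 and 2.88 CPM in old and 0.0649, 0.279 and 0.451 CPM in young libraries. Each of the 6 old libraries was above each young one, and the change was 3.0 ± 0.39, adjusted p = 0.000539 (2.90 in females and 3.09 in males). The summed markers were 388, 668 and 1156 CPM in old and 139.9, 351 and 455 CPM in young libraries, highest in old male CreER 3. Without old male CreER 3 and young male CreER 1, 9 of the 19 rose, beside 18.5% of all genes in that fit (median 0.97), with Vsig4 at 2.80 (adjusted p = 0.00045). With library kind in that fit too, 0 of the 19 rose (median 0.39), beside 0.226% of all genes. In females alone 1 of the 19 rose, beside 1.4% of all genes, and in males alone 6, beside 4.04%.

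Complement genes rose with them, and both lists hold the C1q genes. Of 17 complement genes 7 rose and 0 fell. C1qb, a chain of the C1q complex that macrophages make, was at 25.1, 53.5 and 84.6 CPM in old and 10.8, 17.7 and 24.9 CPM in young libraries (1.51 ± 0.31, adjusted p = 0.00594). Its lowest old library and its highest young one were almost level. C1qa (1.67 ± 0.35, adjusted p = 0.0061), C1qc (1.28 ± 0.31, adjusted p = 0.0128) and the receptor C5ar1 (1.70 ± 0.40, adjusted p = 0.0102) also rose. Of 23 chemokine and cytokine genes 6 rose and 1 fell, against 8 and 1 with library kind as a term. Cxcl13, a chemokine that draws B cells, was at 8.47, 26.8 and 49.5 CPM in old libraries and at 35.1 CPM in young male CreER 1, but at 0.494 to 2.03 CPM in the other 5 young ones (2.94 ± 0.74, adjusted p = 0.014). Without that library and old male CreER 3 its change was 4.13 (adjusted p = 0.000579). Ccl6 rose by 1.66 (adjusted p = 0.00806) and Ccl9 by 1.37 (adjusted p = 0.016), and Il15, a cytokine made by muscle, fell by 0.83 (adjusted p = 0.0104).

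Of 20 interferon-stimulated genes 4 rose and 0 fell (median 0.77), and 10 rose with library kind as a term (median 1.02). Irf7, the master regulator of the type I response, was at 2.92, 9.36 and 14.7 CPM in old and 2.43, 2.81 and 4.61 CPM in young muscle (1.38 ± 0.38, adjusted p = 0.0199). Ifit2 rose by 0.71 (adjusted p = 0.0195). Rsad2 (1.5 ± 0.35, adjusted p = 0.0106) and Oas1a (1.46 ± 0.48, adjusted p = 0.0419) were highest in old male CreER 3, and without it and young male CreER 1 their changes were 0.89 (adjusted p = 0.0128) and 0.79 (adjusted p = 0.164). No antigen presentation gene was called of 16 by group means, and 1 rose with library kind as a term. Their sum was 2532 CPM in old male CreER 3 and 2233 CPM in young male CreER 1, against at most 1205 CPM in the other 10 libraries. Without these libraries 6 of the 16 rose and 0 fell (median 0.65), beside 18.5% rises among all genes.

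Neutrophil genes were among the largest rises, with by far the highest levels in old male CreER 3. Of 8 tested 6 rose. S100a9, a calcium binding protein of neutrophils, was at 1210 CPM in that library and at 0.759 to 2.56 CPM in the other 5 old ones, against 0.222 to 0.719 CPM in young libraries (6.10 ± 1.30, adjusted p = 0.00661). All 6 old libraries were still above all 6 young ones, and without old male CreER 3 and young male CreER 1 the change was 1.99 (adjusted p = 0.0387). S100a8 moved from 5.64 to 1.70 (adjusted p = 0.028), Lcn2, lipocalin 2, from 4.55 to 2.24 (adjusted p = 0.000963), Mmp8 from 6.01 to 4.19 (adjusted p = 0.0305) and Retnlg from 5.70 to 1.06 (adjusted p = 0.403). Chil3, a chitinase-like protein of myeloid cells with close copies in the genome, had the largest rise of the named genes (6.86 ± 1.20, adjusted p = 0.00267). It was at 109 CPM in old male CreER 3 and 0.233 to 1.23 CPM in the other 5 old libraries, above the young maximum of 0.0967 CPM, and its change without both libraries was 3.48 (adjusted p = 0.00151). The change of Fpr2, a receptor of neutrophils and macrophages, went from 4.82 (adjusted p = 0.0105) to 1.23 (adjusted p = 0.275) there. The erythroid gene Slc4a1, the anion exchanger of red cells (4.45), was called by group means (adjusted p = 0.0112) and not without these libraries (adjusted p = 0.0992).

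Of 19 T and NK cell markers 2 rose and 1 fell, 15.8% called beside 17.1% of all genes, and of 13 B and plasma cell markers 0 did either. Gzmb, a granzyme, was at 0.0911, 0.508 and 0.762 CPM in old and 0.0322, 0.0497 and 0.162 CPM in young libraries (2.75 ± 0.65, adjusted p = 0.0105), and Gzmk at 0.121, 0.265 and 1.84 CPM in old libraries while 5 of the 6 young libraries were at 0 and young male CreER 1 at 0.942 CPM (adjusted p = 0.0377). Cd28 fell by 1.25 (adjusted p = 0.0167), with its highest level in young male CreER 1 (15 CPM), and was not called with library kind as a term (adjusted p = 0.07). Of 8 mast cell markers 2 rose, Hdc, histidine decarboxylase (2.64 ± 0.57, adjusted p = 0.007), and Fcer1a, a chain of the IgE receptor (1.45 ± 0.38, adjusted p = 0.0168). Hdc was at 12.7 CPM in old male CreER 3 and 4.79 CPM in the next old library, and its change was 1.55 to 3.03 with 1 library left out. The median of the 8 was 0.63, and -0.13 without old male CreER 3 and young male CreER 1 with library kind as a term. In females the median change was 2.20 for the T and NK and 2.10 for the B and plasma markers, and in males -1.23 and -1.87. Without old male CreER 3 and young male CreER 1, the library rich in these markers, 8 of the 19 T and NK markers rose and 1 fell, and 7 of the 13 B and plasma markers rose, beside 18.5% rises and 18% falls among all genes.

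Stress genes rose in small sets. Of 20 immediate early genes 6 rose and 0 fell, 6 and 0 with library kind as a term as well, and their median was 1.37 in females and -0.05 in males. Junb was at 12.6, 35 and 42.9 CPM in old and 4.57, 6.6 and 11.4 CPM in young libraries without overlap (2.07 ± 0.42, adjusted p = 0.00505). Jund (0.56 ± 0.10, adjusted p = 0.00343), Fosl2 (0.81 ± 0.21, adjusted p = 0.0174) and Jun (1.05 ± 0.31, adjusted p = 0.0274) rose by group means, and Jun was not called with the term (0.41, adjusted p = 0.337). Of 16 p53 and senescence genes 4 rose and 0 fell. Cdkn1a, the cell cycle inhibitor p21, was at 20.1, 42.4 and 48.4 CPM in old and 6.17, 17.5 and 44.4 CPM in young libraries (1.18 ± 0.34, adjusted p = 0.0263). It was higher in all old than in all young females (2.13), while males overlapped (0.22), and it was not called with the term (adjusted p = 0.0693). Sesn1 (1.4 ± 0.32, adjusted p = 0.00998), Eda2r, a receptor induced by p53 (1.37 ± 0.32, adjusted p = 0.0104), and Bbc3 (0.91 ± 0.27, adjusted p = 0.027) also rose, and of these Sesn1 was called with the term (adjusted p = 0.0449). Cdkn2a, a marker of senescence, was not called (0.45 ± 0.45, adjusted p = 0.515).

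Among 18 genes that answer unfolded protein and integrated stress 4 rose and 0 fell, and 4 and 0 with library kind as a term. Ppp1r15a (GADD34), a phosphatase subunit that restores translation, was at 33.2, 46.8 and 53.5 CPM in old and 12.8, 18 and 25.4 CPM in young libraries without overlap (1.25 ± 0.25, adjusted p = 0.00473). Sesn2 (0.79 ± 0.18, adjusted p = 0.00865) had no overlap either, and Dnajb9 (0.75, adjusted p = 0.019) and Gdf15 (1.72, adjusted p = 0.037) rose. Dnajb9 was not called with the term (0.44, adjusted p = 0.124), and its change within library kind was 0.26. Of 19 antioxidant and metallothionein genes 4 rose and 2 fell, against 6 and 1 with the term. The metallothioneins Mt1 (2.09 ± 0.47, adjusted p = 0.00872) and Mt2 (2.20 ± 0.65, adjusted p = 0.0277), which bind zinc and copper, had changes of 3.73 and 4.27 in females (adjusted p = 0.0129 and 0.028) and of 0.45 and 0.12 in males. Nqo1 fell by 0.46 (adjusted p = 0.0175) and Gsta4 by 0.67 (adjusted p = 0.0391), the latter not called with the term (adjusted p = 0.122). Of 21 cholesterol synthesis genes 0 rose and 4 fell, 19% beside the 9.06% of all genes that fell, and all 21 had a negative change. The genes called were Dhcr7 (-1.12, adjusted p = 0.0155), Fdps (-0.85, adjusted p = 0.016), Lss (-0.73, adjusted p = 0.0289) and Sc5d (-0.46, adjusted p = 0.0197).

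Histone transcripts followed library kind. Most replication-dependent histone mRNAs lack a poly(A) tail. Of 13 tested 7 rose and 0 fell by group means (median 1.34), and 1 rose with library kind as a term (median 0.14). H4c4 was at 20.1 to 21.9 CPM in young females and 30.6 to 41.5 CPM in the 5 old libraries of high share. The 4 libraries of low share, 3 young males and old male CreER 3, were at 0 to 0.226 CPM. Its change was 4.10 ± 0.94, adjusted p = 0.00953 by group means and 0.55, adjusted p = 0.483 with the term. H2ac20 (3.33; 0.83, adjusted p = 0.236 with the term) had this layout, H2ac4 was at 0 in all 3 young males and at 0.067 CPM in old male CreER 3 (adjusted p = 0.0197, and 0.215 with the term), and H3c2 was called in both fits (3.22; 2.22, adjusted p = 0.0362).

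Some satellite cell markers fell, while their summed level was higher in old muscle. Of 12, 1 rose and 4 fell, and 5 had a positive and 7 a negative change (median -0.29). The sum of the 12 was 136.8 to 175.1 CPM in old and 107.1 to 135 CPM in young libraries, without overlap. Pax7, the transcription factor that marks these cells, was at 0.0274, 0.358 and 0.789 CPM in old and 0.575, 0.9 and 1.53 CPM in young libraries (-1.72 ± 0.46, adjusted p = 0.0173), with overlap between the groups. Myf5, which Pax7 controls, was at 0.465, 0.696 and 0.804 against 0.939, 1.04 and 1.39 CPM without overlap (-0.69 ± 0.18, adjusted p = 0.0178). Notch3 fell by 0.60 (adjusted p = 0.00756), with -0.16 in females and -1.04 in males, and Calcr, the calcitonin receptor of quiescent satellite cells, which is outside the naming rule, fell by 1.56 (adjusted p = 0.0349). Sdc4, a syndecan that other cells also express, rose by 0.83 (adjusted p = 0.0197). Under the kind term Pax7 had adjusted p = 0.0586 and Myf5 0.0445, and Calcr and Sdc4 were not called (0.133 and 0.109).

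Markers of the other cell types were followed as well. Of 12 Schwann cell and nerve markers 0 rose and 3 fell: Gfra3, a GDNF family receptor (-1.01 ± 0.28, adjusted p = 0.0203), S100b (-1.07 ± 0.33, adjusted p = 0.0329) and the myelin gene Pmp22 (-0.62 ± 0.21, adjusted p = 0.0456), which was not called with library kind as a term (adjusted p = 0.0592). The median of the 12 was 0.37 in females and -0.82 in males. In females alone 1 rose and 0 fell, beside 1.4% and 2.29% of all genes. In males alone 0 rose and 3 fell, beside 4.04% and 3.08%. The sum of these markers was 340.3 CPM in young male CreER 2 and 156 CPM in young male CreER 3, against 69.9 to 97.2 CPM in the other 10. Of 12 endothelial markers 1 rose, the tight junction gene Cldn5, which is outside the naming rule (1.24 ± 0.15, adjusted p = 0.000272). It was at 12.7, 18.4 and 20 CPM in old and 6, 6.65 and 10.2 CPM in young libraries without overlap, while the 12 markers together overlapped (260.3 to 375 against 261 to 399 CPM). None of 11 smooth muscle and pericyte, 14 adipocyte, 9 tenocyte and 12 myofibre markers and of 26 cytosolic ribosomal protein genes was called by group means. With library kind as a term 5 smooth muscle and pericyte and 4 tenocyte markers fell and 1 ribosomal protein gene rose. Of 16 heat shock and chaperone genes 0 rose and 1 fell, and of 23 proteasome genes 0 and 1. Of 5 platelet markers, a list added after seeing the data, 4 rose, and their sum was 342 CPM in old male CreER 3 and at most 36.3 CPM in the other 5 old libraries. The adipocyte sum was 6251 CPM in young female CreER 2 and 1178 to 4376 CPM in the other 11.

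Several of the largest falls belong to no list. Nrep, a small intracellular protein first known from regenerating neurons, was at 9.48, 11.4 and 29.6 CPM in old and 44.5, 75.2 and 119 CPM in young muscle (-2.52 ± 0.34, adjusted p = 0.000689). Its groups did not overlap, and the change was -2.52 in females and -2.53 in males. Nrep was called under all 22 alternatives run for named genes, which do not include females or males alone. Aqp4, the water channel of fast fibres, fell from 11.8, 30.6 and 55.4 to 3.32, 5.01 and 9.12 CPM (-2.34 ± 0.30, adjusted p = 0.000418). Ky, a cytoskeletal protein needed for muscle growth, fell from 46.2, 68.2 and 103 to 7.03, 12.7 and 32.9 CPM (-2.24 ± 0.32, adjusted p = 0.000774), again without overlap.

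Mettl21c, a lysine methyltransferase of muscle, fell by 2.09 (adjusted p = 0.0024) and Aplnr, the apelin receptor, by 1.93 (adjusted p = 0.00499). Fam78a fell by 1.89 (adjusted p = 0.00379) and Foxo6os by 2.16 (adjusted p = 0.00505). Foxo6os is named as antisense to Foxo6, and without strand in the counting reads of such a pair cannot be told apart. In old male CreER 3 the levels of Nrep, Mettl21c, Aplnr, Fam78a and Foxo6os were the highest of the 6 old libraries.

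Liver transcripts were high in old females. Apoa1, an apolipoprotein made by liver and intestine, was at 6.65 to 17.1 CPM in old females, 1.68 CPM in old male CreER 3 and at most 0.494 CPM in the other 8 libraries (adjusted p = 0.00887, and 0.225 without old male CreER 3 and young male CreER 1). All 3 young males were at 0, so its fitted change depends on the prior count and is not given. Serpina1d, one of several close copies of alpha-1-antitrypsin and so uncertain, had a change of 4.81 ± 1.17, adjusted p = 0.0124, 5.69 in females. Albumin, Alb, chosen after its values were seen, was at 106, 186 and 240 CPM in old females and at most 7.73 CPM in the other 9 libraries. Of 12 hepatocyte markers, a list added after seeing the data, 6 rose, and 11 rose in females alone, where 3.69% of all genes were called. In males alone 0 of the 12 were called, beside 7.12%, and their part in the other results was not tested.

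Taf9, a subunit of the TFIID complex, rose by 4.60 ± 0.93, adjusted p = 0.00505. It was at 21.5 to 24.6 CPM in the 4 libraries of high share with 24.9 to 26.2% of fractional values, and at 0.315 to 1.78 CPM in the other 8, old female CreER 3 and old male CreER 3 included. In a fit with library kind of 3 levels, which splits the libraries of high share by how many of their values are fractions, its adjusted p was 0.0984. That fit called 659 rises and 949 falls over all genes, 8.9% (3.65% and 5.25%). Taf9 shares its locus with Ak6, so its counts are uncertain.

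Ageing was also compared between the sexes. In females 253 genes rose and 414 fell, 3.69% (1.4% and 2.29%), in males 730 rose and 556 fell, 7.12% (4.04% and 3.08%), and 15 rises and 98 falls were called in both. Under the kind term 798 rose and 1318 fell in females, 11.7% (4.42% and 7.3%). All female libraries are of high share, so the term cannot adjust their changes. Their median over all genes was 0.0218 without and 0.0217 with the term. The larger number of calls is thus not a result of correcting females for kind. The difference between sexes was called for 1 gene of 18063 (0.00554%), and for 2540 at an unadjusted p below 0.05. That gene, Gm10131, of unknown function and outside the naming rule, was at 0 in all 3 young males and at 1.58 to 12.2 CPM in old males, against 4.9 to 5.43 CPM in young and 1.5 to 4.44 CPM in old females (adjusted p = 0.0236). The 3 young male libraries are all of low share. Under the kind term 92 genes differed between the sexes, 0.509%. By group means with old male CreER 3 left out 1585 did, 8.63% of 18361 tested.

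**Figure D5:**
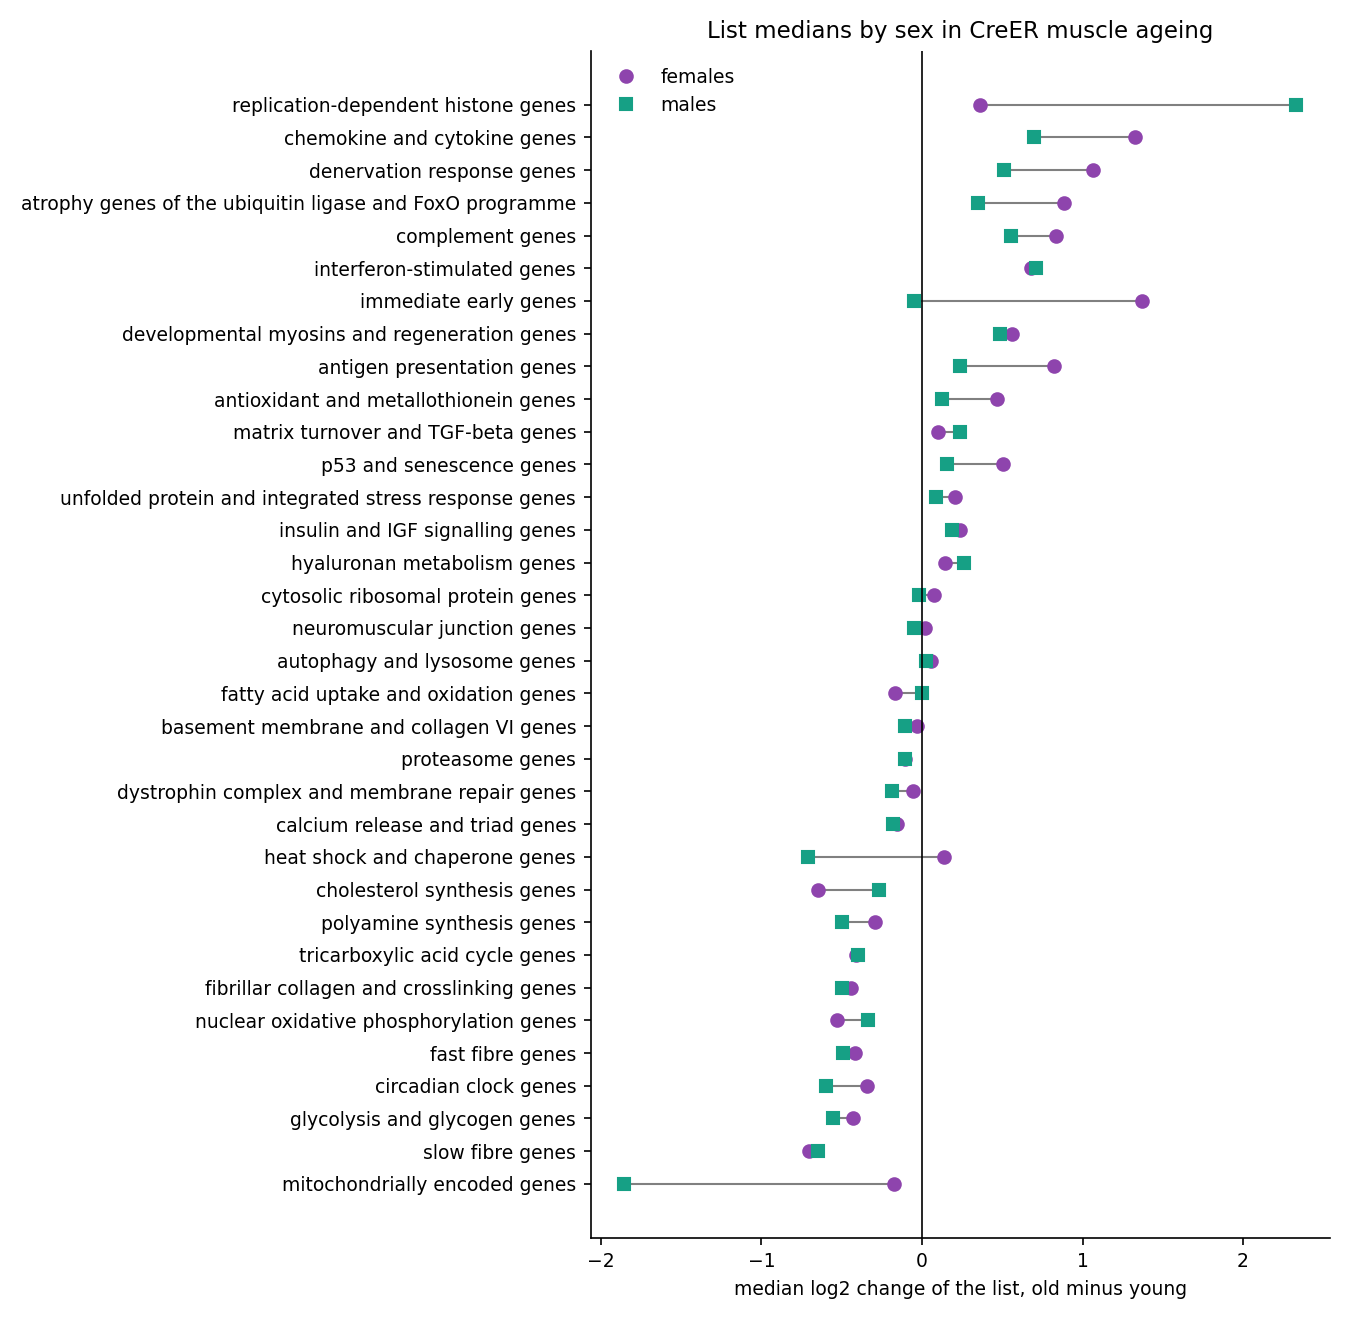
Median log2 change with age (old minus young) of each gene list in females (circles) and males (squares). The median of mitochondrially encoded genes was -1.85 in males and -0.17 in females, and that of histone genes 2.33 and 0.36.

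The nmrHAS2 muscles, another 12 libraries with their own young libraries and the same layout of library kinds, gave 467 rises and 541 falls with age, 5.58% of the genes tested (2.59% and 3%). Of the genes called in both genotypes 311 rose and 471 fell in both, 21.5% and 28.8% of the CreER calls and 66.6% and 87.1% of the nmrHAS2 calls, and 0 went in opposite directions. A difference in ageing between genotypes was called for 0 genes by edgeR, with 335 at an unadjusted p below 0.05 and 18 by DESeq2. Nrep changed by -2.02 in nmrHAS2 muscle (adjusted p = 0.00493), Gadd45a by 1.54 (adjusted p = 0.00416), Vsig4 by 2.54 (adjusted p = 0.00424), Ankrd1 by 2.64 (adjusted p = 0.00238) and Amd1 by -1.22 (adjusted p = 0.0103). Of the neutrophil and erythroid genes, S100a9 had a change there of 1.31 (adjusted p = 0.483) and Slc4a1 of 0.19 (adjusted p = 0.933). Apoa1 was not called there either (adjusted p = 0.575). Other lists had fewer calls there than in CreER muscle: 0 of the 38 nuclear oxidative phosphorylation genes (median -0.23), 0 of the 17 citric acid cycle genes (-0.21), 0 of the 18 clock genes (-0.08) and 1 of the 13 mitochondrially encoded genes (-0.68) were called. Of the 16 denervation genes 6 rose and of the 19 macrophage markers 4. The medians of all these lists have the sign they have in CreER muscle, and no member's difference between genotypes was called.

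The hyaluronan synthases were low in control muscle. Has2 was at 0.268, 1.52 and 1.73 CPM in old and 1.35, 1.75 and 2.38 CPM in young libraries and was not called (-0.46 ± 0.48, adjusted p = 0.531). Of 16 hyaluronan metabolism genes tested 1 was called, Has3, which fell from 0.517, 1.18 and 2.21 to 0.181, 0.429 and 0.843 CPM (-1.52 ± 0.37, adjusted p = 0.0127) and was named after its values were seen. The transgene entry was at 0 to 0.676 CPM over the 12 CreER libraries and was not called with age (-0.59 ± 0.72, adjusted p = 0.599).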

How the data were processed

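RNA was extracted from frozen muscle as total RNA, per the labels' protocols. The authors deposited expected counts per gene, made with Trim Galore 0.6.5 and Salmon 1.4.0, per the submitters' processing notes. Genome build, annotation and library preparation were not given in the sources used here. Salmon divides reads among similar transcripts, so counts of close copies are uncertain, and they were rounded to whole numbers here.

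The 24 muscle libraries were fitted in edgeR 4.0.16 (R 4.3.3) with TMM scaling, filterByExpr, 8 means of age, sex and genotype and the quasi-likelihood F test, with 16 residual degrees of freedom. Ageing was the mean of the female and male difference in CreER. P-values were adjusted by Benjamini-Hochberg over all genes tested, with a threshold of 0.05, and each standard error is the size of the change over the root of its F value. Alternatives were RLE scaling, no filter, DESeq2 1.42.0, a replicate block, library kind of 2 or 3 levels as a term, comparison within kind, only the 12 CreER libraries and leaving out libraries. The term for kind is shared by all 24 libraries, but kind varies only within the old males of each genotype. Its size therefore comes from these groups, where old male CreER 3 and old male nmrHAS2 3 are the libraries of low share. Comparison within kind sets old against young females of high share and, in males, old male CreER 3 alone against the young males. In simulated counts for 18063 genes each gene had the same mean level in all libraries, apart from changes set in old CreER libraries. The fit of group means called 47% of genes changed 2-fold and 86% of those changed 4-fold, with 4 false calls of 137, and with library kind 43%, 72% and 2 of 117. Differences of library kind, sex, genotype or single libraries were not simulated, so these false calls do not measure those in the real counts.

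Members, the 49 gene lists and the rules were chosen with earlier results of these data known. Named genes were, among genes with at least 2 CPM on average and the same sign in both sexes, the 10 largest rises and falls called with and without library kind, the 4 largest rises and falls whatever the kind term gave, and the 4 members of smallest p of each list with 2 or more calls at any level. Symbols of predicted genes and RNAs without a poly(A) tail were left out of the former. Fibre type genes, Cdkn1a, Cdkn2a, Has2 and the transgene were named whatever they showed, and 2 genes that the rule names are not reported here. The added lists of hepatocyte and platelet markers were chosen after seeing the data. Promoter windows come from RefSeq on GRCm38.p6.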

Additional observations from a re-analysis of the deposited data

Results flagged for a closer look

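Of 324 checks of the highest and lowest library among 6 of 1 age, over the named genes reported here and the summed marker lists, 59 found a library far from the other 5. The cutoff holds for 6 normal values of a single population, while these 6 pool both sexes and both library kinds, so no chance rate is given. Some genes, such as S100a9 and Retnlg, were named for rises that old male CreER 3 made larger, so their flags are not independent of the naming. Old male CreER 3 accounts for 31 genes and 7 lists, young male CreER 1 for 6 and 3, young male CreER 2 for 6 and 1, young female CreER 2 for 3 and 1 and old male CreER 1 for 1 gene. All values are CPM.

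In old male CreER 3 the myeloid genes were high: Chil3 at 109, S100a9 at 1210, Mmp8 at 38.2, Retnlg at 121, S100a8 at 770, Fpr2 at 24.4, Lcn2 at 146 and Hdc at 12.7. The erythroid gene Slc4a1 at 120, the granzyme Gzmk at 1.84 and the interferon gene Rsad2 at 47.0 were high as well. Among the genes that fell with age, Nrep at 29.6, Foxo6os at 2.04, Mettl21c at 29.8, Aplnr at 3.39, Fam78a at 7.88, Dhcr7 at 3.39, Fdps at 20.4, Gsta4 at 12.8 and Col1a1 at 58.3 were above the other 5 old libraries. Sesn2 at 4.36, Gdf15 at 1.27, Inhba at 4.93 and the slow myosin Myh7 at 178 were above them too. Jph2 at 132, H4c4 at 0.201, H2ac20 at 0.168, Hspg2 at 30.5, Col6a3 at 17.5, Tgfbr1 at 25.7 and the fast myosin Myh4 at 13580 were below. The summed markers stood apart for neutrophils at 2704, T and NK cells at 75.4, B and plasma cells at 230, erythroid cells at 13680, proliferation at 738, platelets at 342 and, on the low side, myofibres at 27530.

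In young male CreER 1 Runx1 was at 6.72, Cxcl13 at 35.1, Gzmb at 0.162, Cd28 at 15 and Gzmk at 0.942, above the other 5 young libraries, and Myh8 at 1.1, below them. Its summed markers stood apart for T and NK cells at 213, B and plasma cells at 702 and proliferation at 341. In young male CreER 2 Ampd3 was at 9.87, Mt2 at 40.9, Hspg2 at 127, Ccl6 at 33.9, Ccl9 at 24.2 and Hdc at 1.8, with Schwann cell and nerve markers at 340 in sum. In young female CreER 2 Sc5d was at 58.1, H2ac4 at 0.797 and Col15a1 at 38.3, with adipocyte markers at 6251 in sum. In old male CreER 1 Myh8 was at 7.82.

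The change of Gm10131 with age differed between the sexes in the test of that difference (female minus male -12.03 on the log2 scale, adjusted p = 0.0236 by edgeR). It was at 0 in all 3 young males, so this fitted size depends on the prior count.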

How the results depend on the processing

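Against 3082 genes called with age, RLE scaling gave 3046, no filter 2340, library kind as a term 2615, comparison within kind 4553 and DESeq2 4386. Only the 12 CreER libraries gave 1610, kind of 3 levels 1608, females alone 667 and males alone 1286. Leaving out old male CreER 3 and young male CreER 1 gave 6623, and 122 with library kind as a term too. Leaving out 1 library gave 1494 to 5728: 5728 without old male CreER 3, 4513 without young male CreER 1, 1494 without young female CreER 1, 1563 without young male CreER 3, 1570 without old female CreER 2 and 1861 without old female CreER 3. With library kind as a term (2615 genes) it gave 17 to 4992: 17 without old male CreER 3, 4992 without young male CreER 1, 1552 without young female CreER 1, 1568 without old female CreER 2 and 1722 without old female CreER 3. The cause of these changes was not tested.

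A difference between sexes was called for 1 gene, and for 4 with no filter, 6 with only the 12 CreER libraries, 92 with library kind as a term, 1987 within kind, 564 by DESeq2, 12 with kind of 3 levels, 1071 without old male CreER 3 and young male CreER 1 and 4 without them with the term. Leaving out 1 library gave 0 to 1585, the highest without old male CreER 3 and 10 without young male CreER 3. A difference between genotypes was called for 0 genes, for 47 within kind and 18 by DESeq2, and for 0 in the other alternatives run, which include each library left out. The thresholds of 0.1 and 5% left the assignment of kind as it was.

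The 22 alternatives for named genes do not include the fits of females or males alone. Of 140 called named genes 138 had no reversed value, and 9 were called with the same sign in all 22 alternatives: Nrep, Aqp4, Mettl21c, Gadd45a, Ampd3, Amd1, Junb, Col1a1 and Col1a2. The call held in 110 with library kind as a term, 78 with kind of 3 levels, 131 without old male CreER 3 and young male CreER 1 and 15 without them with the term. Without old male CreER 3 alone the calls of Apoa1, Retnlg, Fpr2, Serpina1d, Gdf15, Inhba, Oas1a, Gzmk and Slc4a1 were lost, among genes reported here, and without young male CreER 1 those of Myh8, Mymx, Irs2, Gdf15 and Inhba. Jun was at -0.067 within kind and H2ac20 at -1.62 without both libraries with the term. Of genes that were not called, Myh4 was at -0.84 within kind, where old male CreER 3 is the only old male. Has2 was at 0.50 and the transgene NMR_HAS2 at 0.53 without both libraries with the term. Myh1 was at 0.0211 with RLE scaling and with DESeq2, 0.0115 with only the 12 CreER libraries, 0.0754 without both libraries and -0.41 to 0.17 with 1 library left out.

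The replicate block gave 2964 genes with age, 2272 with library kind as a term, 1 between sexes and 0 between genotypes, and Myh1 at 0.0024. Replicate numbers did not pair the samples: deviations of same-numbered libraries correlated by -0.26 to 0.27, over 0.1 in 3 of 18 pairs, and 3 of 12 libraries correlated best with their own number. The calls of 132 of the 140 named genes held under the block.

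Every alternative planned was run. Total counts of 18 to 109.6 M limit genes below about 1 CPM, such as Pax7, Gzmk and Mymx. In males 1 old library, old male CreER 3, is of the kind of the young libraries, and it differs from the others in cell markers as well.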
